A study of Homo sapiens with 8 samples.

Results

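The 35 genes described here lie around ABCB1 on the long arm of chromosome 7, in band 7q21 and its edges. They were taken by symbol from the count files, which hold 60554 gene rows, and all 35 had a row. By GENCODE 44 they span 83363238 to 93574730 of chromosome 7 (hg38), an interval of 10.2 Mb that holds 108 gene rows of the files. A total of 34 members had enough counts to be tested, and ZNF804B, a zinc finger gene with 1 count over all libraries, did not. Another 16 genes of the interval that are not members were tested too. The members were chosen by their position and, with earlier results of these libraries in view, by the measured difference in CPM between resistant and sensitive cells within DU145 and within PC3. Fold changes between resistant and sensitive cells are therefore given for both lines as a description, with their standard errors and with a note of whether a gene passed the fit across all genes.

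The libraries were bulk RNA-seq of DU145 resistant, DU145 sensitive, PC3 resistant and PC3 sensitive cells, with 2 libraries for each of the 4 groups. DU145 and PC3 are human prostate cancer (PCa) cell lines established from metastases. Per the labels, the resistant cells were kept in medium with 10 nM docetaxel, a taxane that stabilizes microtubules, and the sensitive cells in medium with 0.1% DMSO, so the presence of the drug and the resistant state cannot be told apart. The resistant strains had been derived earlier, and no source used here says whether either is 1 clone or whether docetaxel was withdrawn before these cells were harvested. Total counts ranged from 31685148 to 43045127 per library. The labels do not tell whether replicate libraries stem from different cultures, so the spread that every p-value rests on may be technical. As a check of the labels, CTNNA1 and STAT3, which PC3 is known to lack, were compared between the lines. CTNNA1 stood at 2.06 to 3.34 CPM (counts scaled to each library's total, after edgeR's TMM factors) in the PC3 libraries and at 473 to 559 CPM in the DU145 libraries, and STAT3 at 1.39 to 2.2 CPM in PC3 and 274 to 673 CPM in DU145. Of the 5 epithelial markers listed, all had counts in every library. Their sum, however, was 411 and 240 CPM in DU145 resistant libraries against 4207 and 2508 CPM in DU145 sensitive ones, mostly through the keratins KRT8 and KRT18. The epithelial cadherin CDH1 was near absent in DU145 resistant libraries, at 0.363 and 0.472 CPM against 24.2 and 20.9 CPM in DU145 sensitive ones. In PC3 the sum was 939 and 974 CPM in resistant against 893 and 778 CPM in sensitive libraries. CDH1 in PC3 stood at 6.12 and 4.95 CPM in resistant against 1.07 and 0.81 CPM in sensitive libraries. Of the 7 markers of immune, endothelial and stromal cells, CD3E was at 0 in all libraries, PTPRC was at 0.551 CPM or less, and the list summed to 38.9 and 57.3 CPM in PC3 resistant against 31.5 and 42.9 CPM in PC3 sensitive libraries, and to 8.48 and 6.44 CPM in DU145 resistant against 9.39 and 6.57 CPM in DU145 sensitive libraries. Most of the PC3 sums came from PECAM1 and COL1A1. PECAM1 stood at 12.6 and 24.3 CPM in PC3 resistant against 6.67 and 6.97 CPM in PC3 sensitive libraries. COL1A1 stood at 23.7 and 28.9 CPM in PC3 resistant against 22.9 and 32.6 CPM in PC3 sensitive libraries. The part of these marker shifts in the values below was not tested.

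ABCB1 encodes P-glycoprotein, a pump of the plasma membrane that uses ATP to expel many hydrophobic drugs, docetaxel among them, and its level is a classical correlate of taxane resistance in cultured cells. Its neighbours on 7q21 have varied tasks. Among them are ABCB4, a related transporter that moves phosphatidylcholine into bile, the cell cycle kinase CDK6, the replication activator DBF4, the metal reductases of the STEAP family, 3 secreted semaphorins and the Wnt receptor FZD1. What all of them share is their place on the chromosome.

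The 250 bases before the start of the MANE Select transcript are shown for 4 members on which the results turn. ABCB1 had the largest fold change in DU145, RUNDC3B moved in opposite directions in the 2 lines, and CROT and CDK6 rose strongly in DU145 and did not pass in PC3. The windows are chr7:87600885-87601134 for ABCB1 and chr7:92836574-92836823 for CDK6 on the minus strand, and chr7:87628148-87628397 for RUNDC3B and chr7:87345414-87345663 for CROT on the plus strand (hg38). Capitals mark matches, on either strand, to the GC box GGGCGG, the CCAAT box CCAAT, the TATA box TATAAA and the AP-1 site TGANTCA. Where matches overlap or touch, their capitals run together.
ABCB1: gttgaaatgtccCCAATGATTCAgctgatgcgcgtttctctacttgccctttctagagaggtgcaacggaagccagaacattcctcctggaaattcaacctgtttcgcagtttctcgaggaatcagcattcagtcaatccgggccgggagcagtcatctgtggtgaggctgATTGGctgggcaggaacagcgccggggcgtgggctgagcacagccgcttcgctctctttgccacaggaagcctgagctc
RUNDC3B: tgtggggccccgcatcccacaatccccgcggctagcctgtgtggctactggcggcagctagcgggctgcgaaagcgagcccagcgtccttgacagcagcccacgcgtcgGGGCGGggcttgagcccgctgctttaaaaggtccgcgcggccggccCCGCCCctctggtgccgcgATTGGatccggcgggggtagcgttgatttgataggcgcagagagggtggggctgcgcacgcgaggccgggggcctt
CROT: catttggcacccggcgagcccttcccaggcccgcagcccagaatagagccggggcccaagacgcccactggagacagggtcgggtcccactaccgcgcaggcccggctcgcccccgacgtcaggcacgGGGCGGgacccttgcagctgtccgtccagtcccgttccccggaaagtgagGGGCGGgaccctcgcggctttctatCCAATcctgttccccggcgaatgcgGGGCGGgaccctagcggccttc
CDK6: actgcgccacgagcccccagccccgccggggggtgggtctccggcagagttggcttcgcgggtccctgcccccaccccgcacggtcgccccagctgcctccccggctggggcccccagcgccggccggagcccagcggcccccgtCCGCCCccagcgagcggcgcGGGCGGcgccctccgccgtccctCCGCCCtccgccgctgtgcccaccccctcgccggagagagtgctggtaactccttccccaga

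The ABCB1 window held 2 CCAAT boxes, of which 1 is in the reverse orientation, 1 AP-1 match that overlaps the other CCAAT box, and no GC box or TATA box. The CDK6 and CROT windows held 3 GC box matches each and the RUNDC3B window 2, and CROT and RUNDC3B also held 1 CCAAT box each. The GC content was 80% for CDK6, 70.8% for both CROT and RUNDC3B, and 55.6% for ABCB1. Over the 34 members with such a window, 22 (64.7%) held a GC box, against 59.9% of 19061 MANE windows of all genes. A CCAAT box was found for 11 members (32.4%) and for 34.4% of all windows, an AP-1 match for 2 members (5.88%) and for 4.74%, and a TATA box for 0 members and for 9.19%. For the GC box, the CCAAT box and the AP-1 site the members' shares lie near those of all genes, and a match is a description of letters only.

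In DU145, of the 34 tested members, 30 passed the fit as higher and 1 as lower in resistant cells, and 3 did not pass, where 12.4% of all 20238 genes tested were higher and 15.4% lower. Since this comparison entered the choice of the members, nothing is read from that count. The median log2 fold change over the tested members was 1.98, with a middle range of 1.62 to 3.08, against 0.00 over all genes tested. The resistant pair of libraries lay wholly above the sensitive pair for 31 of the 34 and wholly below it for 1, beside 29.2% and 32.1% of all genes tested, and 27.8% of all genes passed in either direction. In PC3, 14 members passed as higher, 5 as lower and 15 did not pass, beside 18.6% of all genes higher, 17% lower and 35.6% passing in either direction. The PC3 median was 0.45 against 0.01 over all genes. The PC3 resistant pair lay wholly above the sensitive pair for 19 members and wholly below it for 8, beside 36.1% and 35.2% of all genes. The count of 5 lower members in PC3 was 2 without PC3 resistant replicate 2, 3 without PC3 sensitive replicate 1, 3 with a filter of 1 CPM in 4 libraries, 6 without either DU145 resistant library and 7 when PC3 was fitted alone. Together the 35 genes took 0.583% and 0.535% of all counts in DU145 resistant against 0.0904% and 0.0912% in DU145 sensitive libraries. Their share was 0.194% and 0.178% in PC3 resistant against 0.108% and 0.119% in PC3 sensitive libraries. Without ABCB1 the shares were 0.466% and 0.43% in DU145 resistant against 0.0903% and 0.091% in DU145 sensitive libraries, so ABCB1 itself made up the smaller part of the difference. In bulk RNA, more cells with a transcript and more transcript per cell cannot be told apart.

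**Figure D1:**
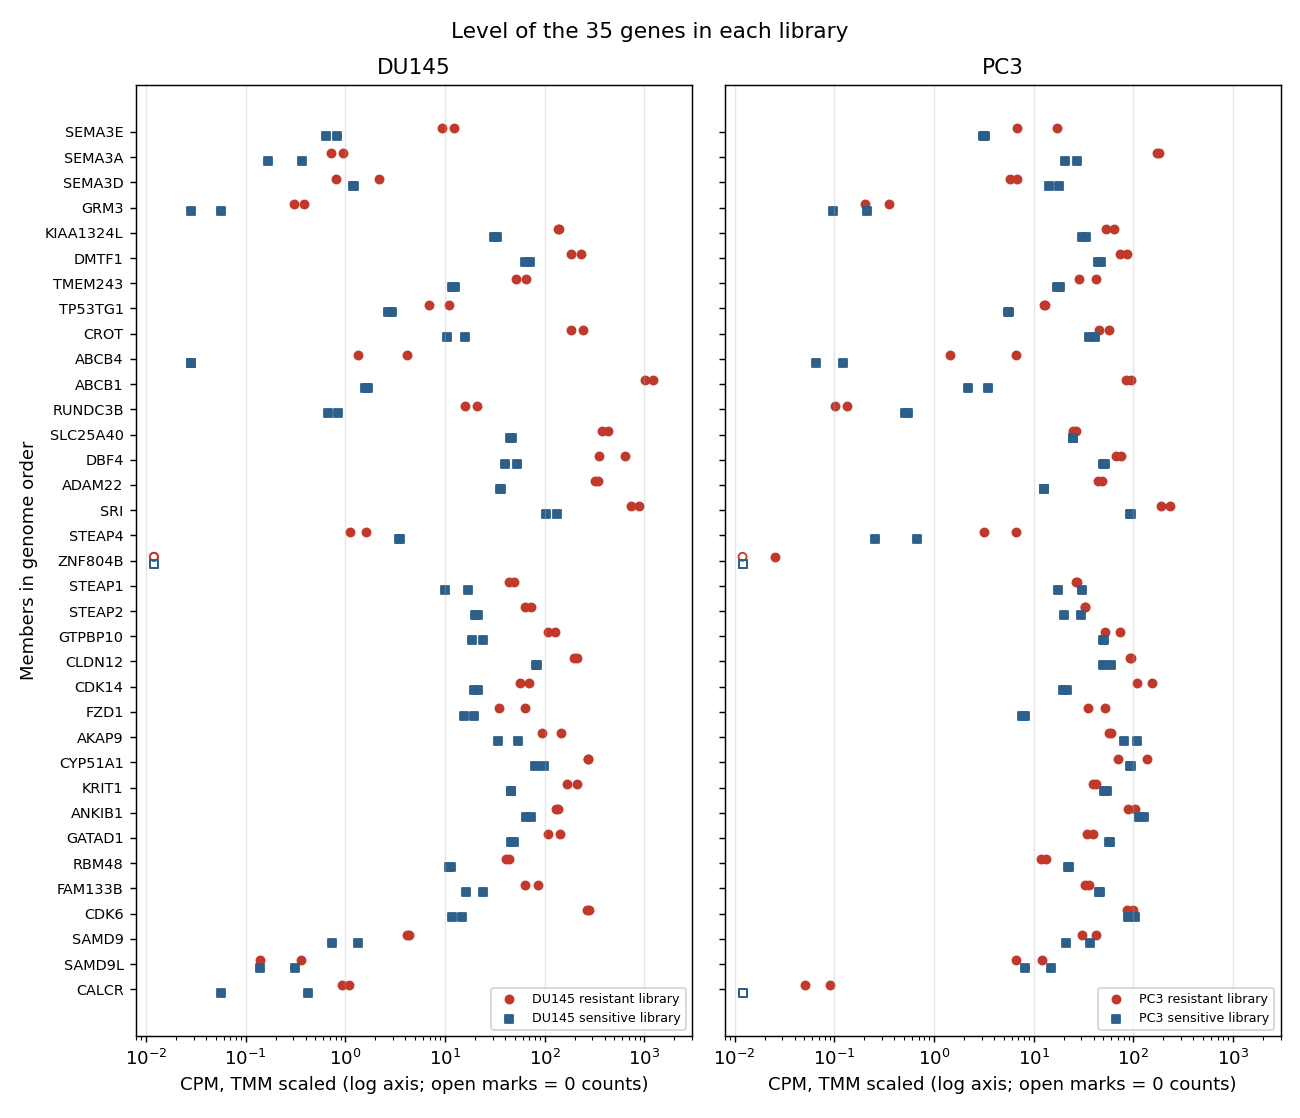
CPM of the 35 genes in each library, in genome order from top to bottom, with DU145 on the left and PC3 on the right and a log axis. Red circles are resistant libraries, blue squares are sensitive libraries, and open marks at the left edge are libraries with 0 counts. In DU145 the circles lie to the right of the squares for 31 of the 34 tested members, and in PC3 for 19.

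Among the transporters, ABCB1 stood at 1217 and 1010 CPM in DU145 resistant against 1.68 and 1.58 CPM in DU145 sensitive libraries. In PC3 it stood at 94.7 and 84.3 CPM in resistant against 2.19 and 3.47 CPM in sensitive libraries. The groups were far apart in both lines. The log2 fold change was 9.41 in DU145 (standard error 0.27, 682-fold), and in PC3 it was 4.99 (standard error 0.23, 31.7-fold). Scaled per kb of exon, ABCB1 ranked 2 of 34 members and 135 of 19962 genes in DU145 resistant cells, against 25 of 34 and 15691 of 19962 in DU145 sensitive cells. In PC3 it ranked 8 of 34 members in resistant cells, against 28 of 34 in sensitive cells.

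ABCB4, the phosphatidylcholine transporter, stood at 1.33 and 4.16 CPM in DU145 resistant libraries and had 1 count in each DU145 sensitive library. Pooled over the libraries, 194 counts in resistant against 2 in sensitive cells gave a ratio of 100, with an exact 95% interval of 27.3 to 831 that covers counting error only. The DU145 log2 fold change of 6.45 (standard error 1.12) was 7.03 without DU145 resistant replicate 1 and 5.43 without DU145 resistant replicate 2. In PC3 it stood at 6.7 and 1.46 CPM in resistant against 0.122 and 0.0648 CPM in sensitive libraries, and its PC3 log2 fold change of 5.39 (standard error 0.94) was 3.91 without PC3 resistant replicate 1 and 6.10 without PC3 resistant replicate 2. The groups did not overlap in either line, but the resistant libraries of each line differed widely from each other. ABCB4 is a close paralog of ABCB1, and no source used here says how reads that match both genes were counted. Its counts were 0.109% and 0.412% of the ABCB1 counts in DU145 resistant libraries and 7.08% and 1.74% in PC3 resistant libraries. SLC25A40, a carrier of the mitochondrial inner membrane, stood at 435 and 376 CPM in DU145 resistant against 47.5 and 45.2 CPM in DU145 sensitive libraries, a log2 fold change of 3.13 (standard error 0.14). It stood at 26.8 and 24.6 CPM in PC3 resistant against 25.1 and 25.1 CPM in PC3 sensitive libraries, where the groups overlapped and the log2 fold change was 0.03 (standard error 0.13).

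**Figure D2:**
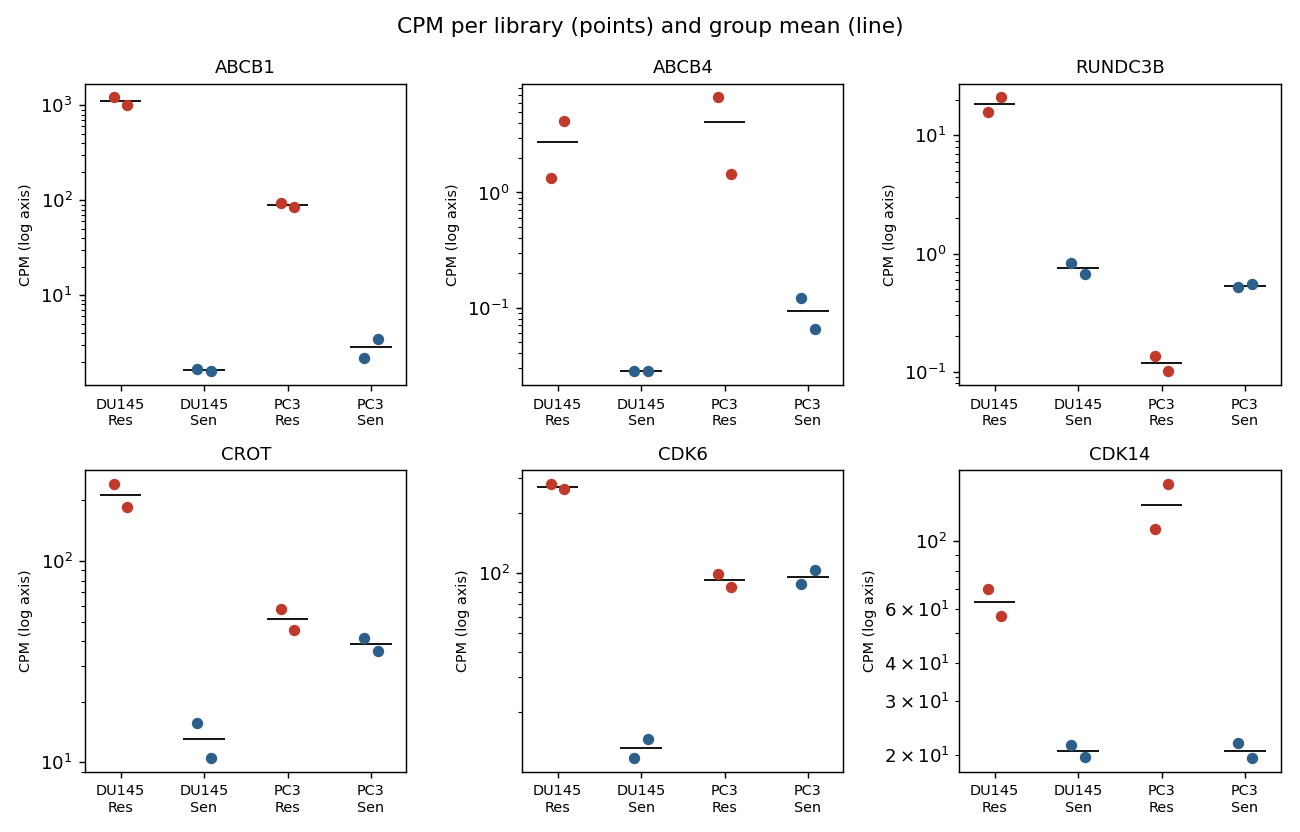
CPM per library on log axes for ABCB1, ABCB4, RUNDC3B, CROT, CDK6 and CDK14. Points are libraries, lines are group means, and the groups run from left to right as DU145 resistant, DU145 sensitive, PC3 resistant and PC3 sensitive. ABCB1 and ABCB4 lie higher in resistant cells of both lines, RUNDC3B lies higher in DU145 resistant but lower in PC3 resistant cells, and CDK6 is apart in DU145 and overlaps in PC3.

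Of the cell cycle genes, CDK6, the kinase that acts with D-type cyclins to drive entry into S phase, stood at 280 and 265 CPM in DU145 resistant against 11.8 and 14.7 CPM in DU145 sensitive libraries. Its log2 fold change of 4.36 (standard error 0.17) was the highest among the tested members to the right of RUNDC3B. CDK6 in PC3 stood at 99.1 and 85.6 CPM in resistant against 88.6 and 104 CPM in sensitive libraries, and the groups overlapped. DBF4, the activating subunit of the CDC7 kinase at replication origins, stood at 646 and 351 CPM in DU145 resistant against 52.8 and 40.2 CPM in DU145 sensitive libraries (log2 fold change 3.42, standard error 0.27). Its PC3 values were 75.6 and 67.5 CPM in resistant against 52.6 and 49.6 CPM in sensitive libraries, apart but not past the threshold at 0.49 (standard error 0.24). It passed at 0.49 without DU145 resistant replicate 1 or DU145 resistant replicate 2, at 0.52 with no filter on low counts, and at 0.50 when PC3 was fitted alone. DMTF1, a Myb-like transcription factor that binds D-type cyclins, was higher in both lines, at 182 and 231 CPM in DU145 resistant against 64 and 71 CPM in DU145 sensitive libraries, and at 86.8 and 73.3 CPM in PC3 resistant against 44.4 and 47.7 CPM in PC3 sensitive libraries. CDK14, a kinase that works with cyclin Y in Wnt signalling, differed from these in that it rose more in PC3. It stood at 69.7 and 56.8 CPM in DU145 resistant against 21.6 and 19.6 CPM in DU145 sensitive libraries, or 1.62 on the log2 scale (standard error 0.18). In PC3 it stood at 110 and 154 CPM in resistant against 21.8 and 19.5 CPM in sensitive libraries, a log2 fold change of 2.67 (standard error 0.19). FZD1, a Wnt receptor that lies next to CDK14 in the list, stood at 64.2 and 35 CPM in DU145 resistant against 19.7 and 15.6 CPM in DU145 sensitive libraries (1.49, standard error 0.28). FZD1 in PC3 stood at 35.4 and 51.9 CPM in resistant against 7.67 and 8.23 CPM in sensitive libraries (2.46, standard error 0.29).

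Among the enzymes, CROT, which transfers medium chain acyl groups to carnitine in peroxisomes, stood at 241 and 185 CPM in DU145 resistant against 15.7 and 10.5 CPM in DU145 sensitive libraries (4.02, standard error 0.23). Its PC3 values of 57.6 and 45.6 CPM in resistant against 41.4 and 35.9 CPM in sensitive libraries did not overlap but did not pass at 0.42 (standard error 0.21). CYP51A1, the lanosterol demethylase of cholesterol synthesis, stood at 273 and 273 CPM in DU145 resistant against 80.7 and 97.6 CPM in DU145 sensitive libraries, and at 136 and 70.5 CPM in PC3 resistant against 95.7 and 91.7 CPM in PC3 sensitive libraries. The PC3 resistant libraries of CYP51A1 thus lay on both sides of the sensitive ones. Without PC3 resistant replicate 2 it passed at 0.53, but without PC3 resistant replicate 1 it had -0.41 and did not pass. Some 68.2% of its exon bases are also annotated to another protein-coding gene of the same strand. The STEAP genes encode reductases or related proteins that handle iron and copper at membranes. STEAP1 and STEAP2 followed the interval in DU145, with 49.3 and 43.8 CPM in resistant against 16.9 and 9.98 CPM in sensitive libraries for STEAP1 and log2 fold changes of 1.79 (standard error 0.28) and 1.71 (standard error 0.19), and neither passed in PC3, although STEAP2 did so at 0.70 without PC3 sensitive replicate 2. STEAP4 went the other way. It stood at 1.12 and 1.61 CPM in DU145 resistant against 3.45 and 3.52 CPM in DU145 sensitive libraries, the only member that passed as lower in DU145 (-1.35, standard error 0.44), and this call was lost without any 1 of the 4 DU145 libraries, at -1.60 to -1.12. In PC3 it stood at 6.59 and 3.16 CPM in resistant against 0.67 and 0.259 CPM in sensitive libraries, for which the fit gave 3.37 (standard error 0.50). This became 4.22 when PC3 sensitive replicate 1 was left out and 2.75 when PC3 resistant replicate 1 was. STEAP4 lies between SRI and STEAP1, both higher in DU145 resistant cells, and 6.95% of its exon bases are shared with a lncRNA on the other strand.

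Next to ABCB1, RUNDC3B, which encodes a protein with a RUN domain, stood at 15.9 and 21 CPM in DU145 resistant against 0.841 and 0.677 CPM in DU145 sensitive libraries (4.60, standard error 0.30). In PC3 it had 6 and 4 counts (0.135 and 0.101 CPM) in resistant against 17 and 17 counts (0.518 and 0.551 CPM) in sensitive libraries, a log2 fold change of -2.14 (standard error 0.43). By the widest gene extents of GENCODE 44, its start lies within ABCB1 on the opposite strand, but no exon base is shared between the 2 genes. By the MANE Select starts used for the sequence windows, RUNDC3B starts outside the ABCB1 transcript, beyond its start. ADAM22, a metalloprotease-like receptor without protease activity, was higher in both lines, with 342 and 318 CPM in DU145 resistant against 36.2 and 35.6 CPM in DU145 sensitive libraries and 44.6 and 48 CPM in PC3 resistant against 12.6 and 12.6 CPM in PC3 sensitive libraries. SRI, which encodes the calcium binding protein sorcin, was the most abundant member per kb of exon in DU145 resistant, DU145 sensitive and PC3 resistant cells, and ranked 2 of 34 in PC3 sensitive cells. It stood at 884 and 727 CPM in DU145 resistant against 134 and 102 CPM in DU145 sensitive libraries (2.77, standard error 0.19). In PC3 it stood at 236 and 191 CPM in resistant against 94.9 and 92.8 CPM in sensitive libraries (1.18, standard error 0.18).

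Genes that start back to back on opposite strands were compared, since their starts lie within 1000 bases of each other. TP53TG1, a lncRNA induced by p53, starts 104 bases from CROT and stood at 6.88 and 10.9 CPM in DU145 resistant against 2.94 and 2.65 CPM in DU145 sensitive libraries, a log2 fold change of 1.67 (standard error 0.26) beside 4.02 for CROT. In PC3 the order of the pair was the other way round, with 1.18 (standard error 0.25) for TP53TG1, which passed, and 0.42 for CROT, which did not. SLC25A40 and DBF4, which share 145 exon bases, had log2 fold changes of 3.13 and 3.42 in DU145 and of 0.03 and 0.49 in PC3. KRIT1 and ANKIB1, which share 193 exon bases, had 2.05 (standard error 0.14) and 0.93 (standard error 0.14) in DU145 and -0.38 and -0.35 in PC3. Without a stated strand setting, reads from the shared bases of such pairs cannot be told apart.

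Further along, the secreted semaphorins at the left end of the interval, guidance cues that act through neuropilins and plexins, did not move as a group. SEMA3E stood at 12.4 and 9.27 CPM in DU145 resistant against 0.644 and 0.817 CPM in DU145 sensitive libraries (3.89, standard error 0.44), and at 17 and 6.87 CPM in PC3 resistant against 3.08 and 3.24 CPM in PC3 sensitive libraries (1.92, standard error 0.39, and 1.12 without PC3 resistant replicate 1). SEMA3A was near absent in DU145, at 0.939 and 0.722 CPM in resistant against 0.168 and 0.366 CPM in sensitive libraries. Its DU145 log2 fold change of 1.62 (standard error 0.37) did not pass without DU145 resistant replicate 1 (1.41), without DU145 sensitive replicate 1 (1.18) or when DU145 was fitted alone (1.64), and was 2.27 without DU145 sensitive replicate 2. In PC3, SEMA3A stood at 171 and 182 CPM in resistant against 27 and 20.8 CPM in sensitive libraries (2.88, standard error 0.19). SEMA3D overlapped between the DU145 groups, at 2.18 and 0.805 CPM in resistant against 1.18 and 1.21 CPM in sensitive libraries. It was lower in PC3, at 6.75 and 5.81 CPM in resistant against 18 and 14.4 CPM in sensitive libraries (-1.36, standard error 0.35), a call that was lost without PC3 resistant replicate 2 (-1.26) or PC3 sensitive replicate 1 (-1.19). The metabotropic glutamate receptor GRM3 was barely counted, with 10 and 14 counts in DU145 resistant against 1 and 2 in DU145 sensitive libraries, and 9 and 14 counts in PC3 resistant against 7 and 3 in PC3 sensitive libraries. Some 18.9% of its exon bases are shared with a lncRNA on the other strand. The DU145 counts gave a ratio of 8.25 with an exact 95% interval of 2.5 to 42.8, and the call was lost without any 1 of the DU145 libraries, at 2.56 to 3.46.

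KIAA1324L, TMEM243, GTPBP10 and CLDN12 were all higher in DU145 resistant cells. KIAA1324L stood at 138 and 137 CPM in DU145 resistant against 30.8 and 33.4 CPM in DU145 sensitive libraries, and at 64.4 and 53.6 CPM in PC3 resistant against 30.8 and 33.3 CPM in PC3 sensitive libraries. TMEM243, a membrane protein, changed by 2.26 on the log2 scale in DU145 (standard error 0.21), and by 0.99 in PC3 (standard error 0.20). It shares 5.44% of its exon bases with DMTF1 on the other strand. GTPBP10, a GTPase of mitochondrial ribosome assembly, had 2.47 in DU145 (standard error 0.20), while its 0.31 in PC3 (standard error 0.19) did not pass. CLDN12, a claudin, had 1.30 in DU145 (standard error 0.14), while in PC3 it had 0.78 (standard error 0.14). It shares exon bases on the same strand with both GTPBP10 and CDK14.

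To the right of FZD1, no member passed as higher in PC3, and RBM48, GATAD1 and AKAP9 passed as lower. RBM48, a protein of the minor spliceosome, stood at 43.7 and 41.3 CPM in DU145 resistant against 10.9 and 11.4 CPM in DU145 sensitive libraries (1.93, standard error 0.16). In PC3, RBM48 stood at 13.2 and 11.9 CPM in resistant against 21.9 and 22.5 CPM in sensitive libraries (-0.82, standard error 0.16). GATAD1, a zinc finger protein of chromatin, stood at 144 and 108 CPM in DU145 resistant against 46.3 and 49.5 CPM in DU145 sensitive libraries, and at 39.6 and 34.1 CPM in PC3 resistant against 58.6 and 57.3 CPM in PC3 sensitive libraries. Its PC3 log2 fold change of -0.65 (standard error 0.16) did not pass without PC3 resistant replicate 2 (-0.55) or PC3 sensitive replicate 1 (-0.64). AKAP9, a scaffold that holds protein kinase A at the centrosome and Golgi, stood at 93.4 and 146 CPM in DU145 resistant against 34.3 and 53.6 CPM in DU145 sensitive libraries, and at 56.8 and 59.9 CPM in PC3 resistant against 81.4 and 108 CPM in PC3 sensitive libraries. The AKAP9 call in PC3 (-0.70, standard error 0.25) was lost without PC3 resistant replicate 1 (-0.66), PC3 resistant replicate 2 (-0.74) or PC3 sensitive replicate 2 (-0.49), and with a filter of 1 CPM in 4 libraries (-0.66). KRIT1, a junction protein mutated in cerebral cavernous malformation, stood at 211 and 169 CPM in DU145 resistant against 46 and 45.7 CPM in DU145 sensitive libraries, and at 42.1 and 39.4 CPM in PC3 resistant against 51.2 and 54.8 CPM in PC3 sensitive libraries. Its PC3 log2 fold change of -0.38 did not pass, but did so at -0.38 without DU145 resistant replicate 1 or DU145 resistant replicate 2 and at -0.37 when PC3 was fitted alone. Some 18.6% of the exon bases of KRIT1 are also annotated to another protein-coding gene of the same strand. ANKIB1, a ubiquitin ligase, and FAM133B also had both PC3 resistant libraries below both sensitive ones, at log2 fold changes of -0.35 and -0.41 that did not pass, although FAM133B did so at -0.40 when PC3 was fitted alone.

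At the right end, SAMD9 and SAMD9L, interferon induced genes that restrain viral replication and growth, were low in DU145 and well counted in PC3. SAMD9 stood at 4.39 and 4.14 CPM in DU145 resistant against 1.34 and 0.733 CPM in DU145 sensitive libraries (2.03, standard error 0.36), and at 30.5 and 42.1 CPM in PC3 resistant against 21.1 and 37.1 CPM in PC3 sensitive libraries, which overlapped. SAMD9L had 12 and 5 counts in DU145 resistant against 5 and 11 counts in DU145 sensitive libraries, so no difference was detectable at this depth. It stood at 6.68 and 12.1 CPM in PC3 resistant against 8.16 and 14.9 CPM in PC3 sensitive libraries, which overlapped too. CALCR, the calcitonin receptor, had 36 and 33 counts in DU145 resistant against 15 and 2 counts in DU145 sensitive libraries, and 4 and 2 counts in PC3 resistant against 0 and 0 counts in PC3 sensitive libraries. Neither CALCR difference passed, but in DU145 it did so at 4.09 without DU145 sensitive replicate 1, and at 2.05 with no filter on low counts.

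Read in genome order, the members fell into stretches that differed between the lines. These stretches were set after the values were seen and carry no test. In DU145, the 8 tested members from CROT to SRI had a median log2 fold change of 3.72 and ranged from 2.77 to 9.41. The 11 tested members from AKAP9 to CALCR had a median of 1.88 in DU145, with 9 higher and 0 lower, beside the 12.4% and 15.4% of all genes. In PC3, the 23 tested members from SEMA3E to FZD1 had a median of 0.88, with 14 higher and 2 lower (SEMA3D and RUNDC3B), whereas the 11 from AKAP9 to CALCR had a median of -0.35, with 0 higher and 3 lower, named above. Beside the 18.6% of all genes higher and 17% lower in PC3, nothing particular to the 11 is read from their counts. Tested genes of the interval that are not members were split by the same point. In PC3 the 8 to the left of it had a median of 1.47 and the 8 from MTERF1, a mitochondrial transcription factor, to the right had a median of -0.48. In DU145 those medians were 1.10 and 1.45. Of the 8 on the left, 3 passed as higher in PC3, and of the 8 on the right, 1 passed as lower. In DU145, 3 on the left and 2 on the right passed as higher. Many of these genes stood below 1 CPM in every group, so the medians rest largely on low counts and nothing is read from them. Among the better counted ones, MTERF1 changed by 1.98 on the log2 scale in DU145 (standard error 0.27), with -0.53 in PC3 (standard error 0.26). CFAP69 to its left had 1.34 (standard error 0.34) and 0.98 (standard error 0.31).

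**Figure D3:**
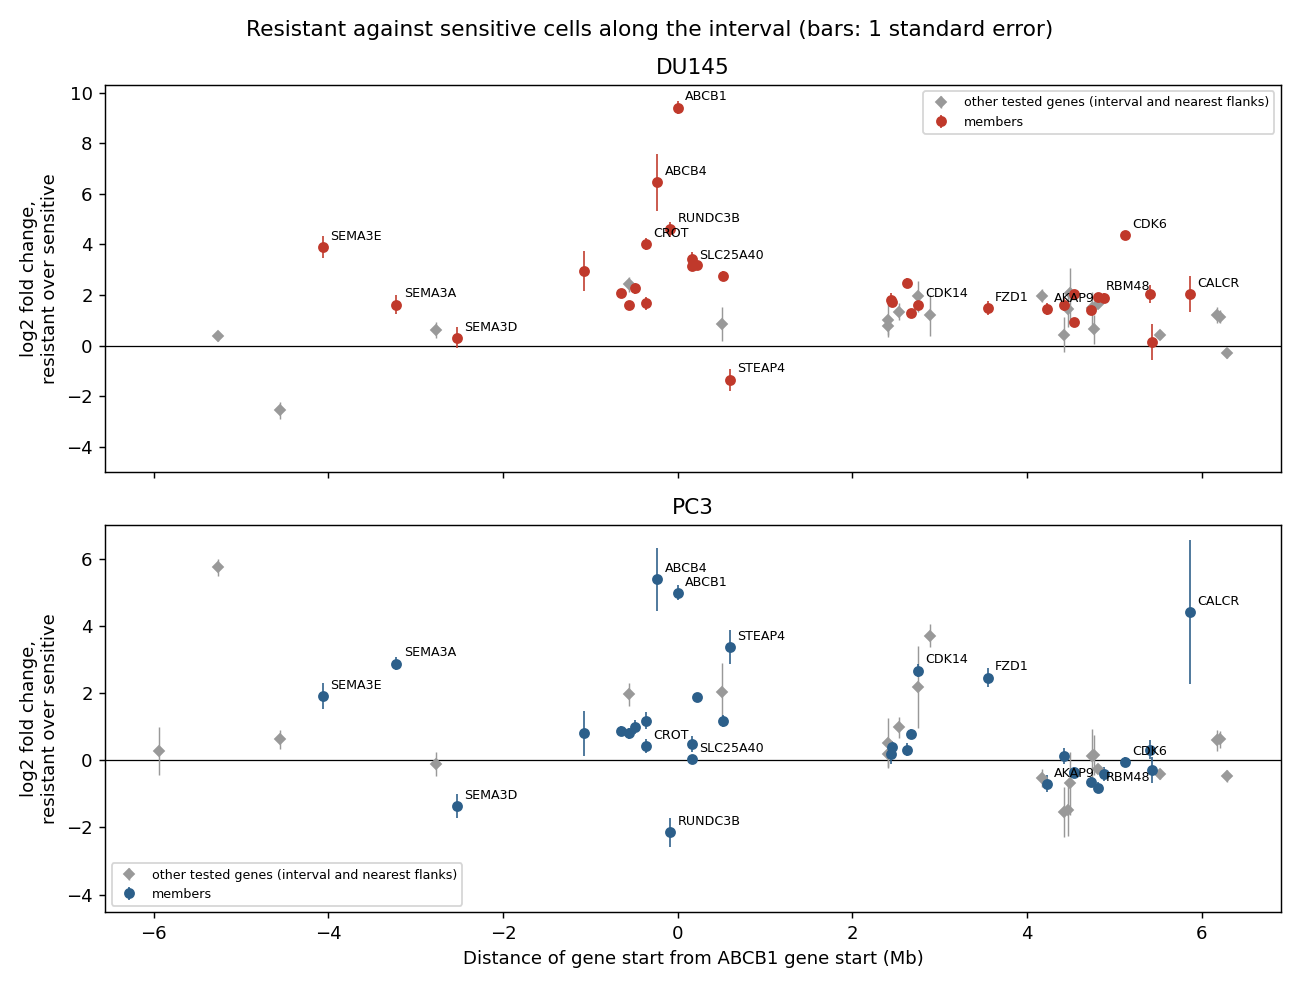
Log2 fold change of resistant over sensitive cells against the distance of each gene's start from the ABCB1 gene start in Mb, for DU145 above and PC3 below. Starts here are those of the widest gene extent, which for ABCB1 is not the MANE Select start of the sequence window. Colored circles are the tested members, grey diamonds are the other tested genes of the interval and the nearest 3 coding genes on either side, and bars are 1 standard error. In DU145 nearly all points lie above 0 and peak at ABCB1, and in PC3 the members to the right of FZD1 lie around or below 0, with CALCR, which rests on 6 counts, as the exception. HGF, without counts in DU145, is drawn for PC3 only.

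At the left border, SEMA3E lay just inside, with log2 fold changes of 3.89 in DU145 and 1.92 in PC3. Just outside, PCLO, a scaffold of the synaptic active zone, had -2.56 in DU145 (standard error 0.33), with 0.63 in PC3 (standard error 0.28). CACNA2D1, a calcium channel subunit, had 0.38 (standard error 0.19) in DU145, with 31.3 and 24.9 CPM in resistant against 22.2 and 21 CPM in sensitive libraries. CACNA2D1 in PC3 stood at 36.9 and 27.5 CPM in resistant against 0.609 and 0.583 CPM in sensitive libraries (5.75, standard error 0.26), which is more than ABCB1 itself. HGF had no count in any DU145 library. Over the 48 tested genes of the 8 Mb to the left, the median was -0.93 in DU145, with 1 higher and 22 lower, and 1.35 in PC3, with 37 higher and 0 lower. Of all genes tested, 12.4% were higher and 15.4% lower in DU145, and 18.6% were higher and 17% lower in PC3. At the right border, VPS50 inside the interval had 0.40 in DU145 and -0.42 in PC3, and just outside it TFPI2 had 1.20 and 0.60, GNG11 had 1.14 and 0.62, and BET1 had -0.30 and -0.48. Over the 116 tested genes of the 8 Mb to the right, the medians were -0.10 in DU145 (9 higher, 19 lower) and -0.36 in PC3 (6 higher, 34 lower). Over the 333 tested genes of the short arm they were -0.60 in DU145 (14 higher, 138 lower) and 0.39 in PC3 (107 higher, 16 lower).

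The change between resistant and sensitive cells was then compared between the lines. By the fit across all genes, the log2 fold change in PC3 was below that in DU145 for 24 of the 34 tested members and above it for 2, CDK14 and STEAP4, and 8 did not pass, where 15.9% of all genes had a lower and 18.5% a higher value in PC3 (34.3% in all). Both contrasts entered the choice of the members, so this count is a description too. The median difference, PC3 minus DU145, was -1.60. The members that did not pass were SEMA3A, GRM3, TP53TG1, ABCB4, CLDN12, FZD1, SAMD9L and CALCR. Of these, SEMA3A had 1.26 (standard error 0.46). It passed at 1.24 with DESeq2 in place of edgeR, at 1.29 with no filter on low counts and at 1.33 with a filter of 1 CPM in 4 libraries. SEMA3A also passed at 1.70 without DU145 sensitive replicate 1 and at 1.46 without PC3 sensitive replicate 1. FZD1 passed at 0.98 with no filter on low counts, at 1.48 without DU145 resistant replicate 1 and at 1.22 without PC3 resistant replicate 1.

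A comparison outside the rule is that of the sensitive lines, which asks what level the members had in PC3 and DU145 cells not kept in docetaxel. It shares the sensitive libraries with the comparisons above. The values of these libraries entered the choice of the members, so this comparison and its p-values are a description too. In PC3 sensitive over DU145 sensitive cells, 16 of the 34 tested members were higher and 7 lower by edgeR's quasi-likelihood test, and 11 did not pass, beside 28.6% of all genes higher, 29.2% lower and 57.8% in either direction. The PC3 libraries lay wholly above the DU145 ones for 20 members and wholly below for 9, beside 39.8% and 40.6% of all genes. The median log2 difference of the members was 0.67, against -0.03 over all genes. Among the tested members, the largest differences lay toward the ends of the interval. However, SEMA3E at the very left end had 2.11 (standard error 0.44). AC002456.2, a lncRNA between the ends that is not a member, had 4.05 (standard error 0.58). SEMA3A, at 27 and 20.8 CPM in PC3 sensitive against 0.168 and 0.366 CPM in DU145 sensitive libraries, was higher in PC3 by 6.47 (standard error 0.28, adjusted p = 2.79e-08 from edgeR), and by 7.11 without DU145 sensitive replicate 2. SAMD9L was higher in PC3 by 5.66 (adjusted p = 9.34e-06 from edgeR, and 6.31 without DU145 sensitive replicate 2), SAMD9 by 4.80 (adjusted p = 1.48e-06 from edgeR), SEMA3D by 3.76 (adjusted p = 1.7e-05 from edgeR) and CDK6 by 2.86 (adjusted p = 1.84e-07 from edgeR). For CDK6 the libraries stood at 88.6 and 104 CPM in PC3 sensitive against 11.8 and 14.7 CPM in DU145 sensitive cells, with no overlap. ABCB1 stood at 2.19 and 3.47 CPM in PC3 sensitive against 1.68 and 1.58 CPM in DU145 sensitive libraries. Its log2 difference of 0.79 (standard error 0.24, adjusted p = 0.0156 from edgeR) did not pass without PC3 sensitive replicate 2 (0.44) or DU145 sensitive replicate 2 (0.73).

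Lower in PC3 sensitive cells were STEAP4 (-2.89, standard error 0.50, adjusted p = 0.000534 from edgeR, and -3.72 without PC3 sensitive replicate 1), ADAM22 (-1.51, standard error 0.13), FZD1 (-1.15, standard error 0.29), SLC25A40 (-0.89, standard error 0.13), CLDN12 (-0.61, standard error 0.14), DMTF1 (-0.55, standard error 0.16) and CALCR. CALCR had 0 and 0 counts in PC3 sensitive against 15 and 2 counts in DU145 sensitive libraries, and its call was lost without PC3 sensitive replicate 1, PC3 sensitive replicate 2 or DU145 sensitive replicate 1, when the adjusted p from edgeR was 0.0566, 0.052 and 0.121. The CLDN12 call was lost without PC3 sensitive replicate 1 (-0.46), and the DMTF1 call without PC3 sensitive replicate 1 (-0.49) or DU145 sensitive replicate 2 (-0.49). KIAA1324L and CDK14 had differences of 0.00 (standard error 0.14) and 0.00 (standard error 0.18), with overlapping libraries. Of the higher members, the TMEM243 call (0.55) was lost without any 1 of the 4 sensitive libraries, at 0.51 to 0.61, and with a filter of 1 CPM in 4 libraries (0.49), and the STEAP1 call (0.83) without PC3 sensitive replicate 2 (0.39) or DU145 sensitive replicate 2 (0.48).

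**Figure D4:**
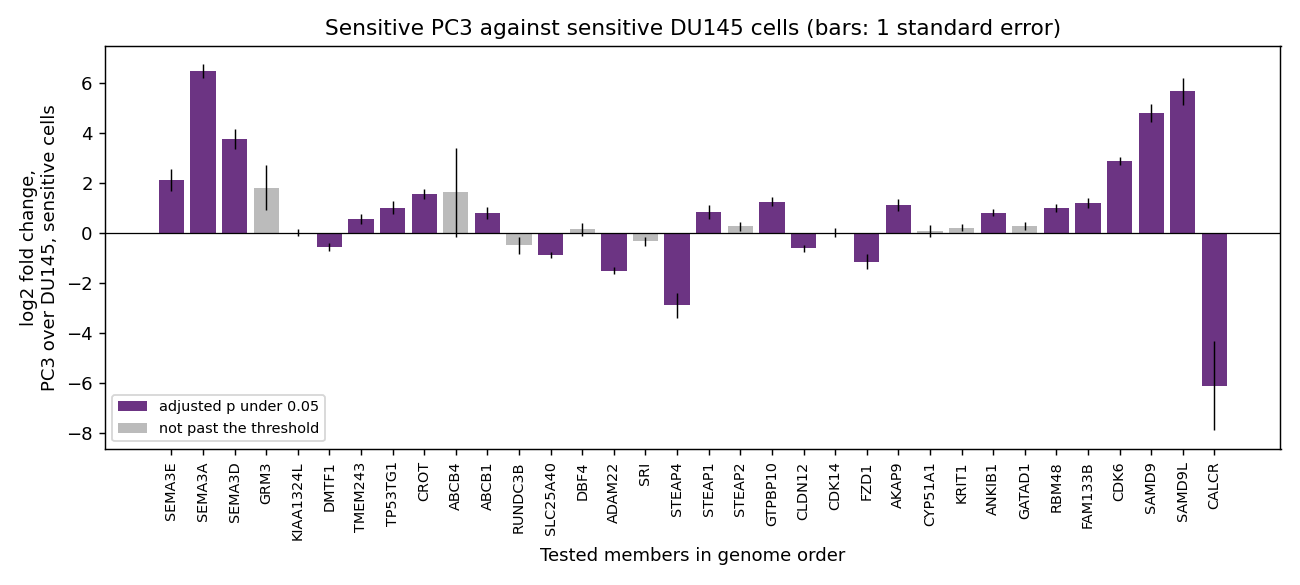
Log2 fold change of PC3 sensitive over DU145 sensitive cells for the 34 tested members in genome order, with bars of 1 standard error. Purple columns passed the test across all genes and grey columns did not. SEMA3A (6.47) and SAMD9L (5.66) stand highest, and CALCR, with 0 counts in PC3 sensitive libraries, has a fitted value that is no bound.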

How the data were processed

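For each library the authors deposited a file of raw read counts by gene, without normalization. Per the labels, total RNA was made into libraries with a SMART-seq kit, and the submitters' processing notes name Bowtie and hg38. No source used here names Bowtie's version, the counting program, its annotation or its strand option, or what was done with multiply mapped reads. The paper's single cell data were not analysed here.

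Members, lists and stretches were chosen with earlier results of these data known. Groups came from the sample titles. Of 60554 rows, 56558 matched an ID of GENCODE 44, which gave coordinates, exon lengths and MANE Select starts on hg38. Genes were filtered with filterByExpr, which left 20238, and scaled by TMM (factors 0.951 to 1.038). Group means were estimated from all 8 libraries together in edgeR 4.0.16 (R 4.3.3). Contrasts had quasi-likelihood tests, p-values adjusted by Benjamini-Hochberg across genes, and a cutoff of 0.05. A standard error is the size of the log2 fold change over the root of its F statistic. Residual degrees of freedom numbered 4. The fit was tested on simulated data. With 2 libraries against 2, an exact permutation test cannot go below p = 0.333, two-sided, so none was run. Intervals and ratios of counts cover counting error only, and no source used here names molecular identifiers.

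Named were all members, the other tested genes of the interval as needed, and the nearest 3 tested coding genes on either side. Alternatives were RLE scaling, DESeq2 1.42.0, no filter, a filter of 1 CPM in 4 libraries, 1 line alone, a block for the replicate number, each library left out, an adjusted p under 0.01, and medians without ABCB1, at 8 CPM or more, or over all coding genes of the interval. Sequence windows were read from hg38. Some results are not reported here.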

Additional observations from a re-analysis of the deposited data

Results flagged for a closer look

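The change between resistant and sensitive cells differed between the lines, by a test of the difference across all genes with edgeR, for 26 members. Of all genes tested, 34.3% passed this test, 18.5% with a higher and 15.9% with a lower value in PC3. Values are PC3 minus DU145 on the log2 scale. The change was larger in PC3 for STEAP4 (4.72) and CDK14 (1.06). Among the genes nearest ABCB1 the differences were -4.43 for ABCB1, -6.74 for RUNDC3B, -3.60 for CROT, -3.09 for SLC25A40, -2.94 for DBF4, -1.32 for ADAM22 and -1.59 for SRI. To the left they were -1.97 for SEMA3E, -1.68 for SEMA3D, -1.22 for KIAA1324L, -0.82 for DMTF1 and -1.27 for TMEM243. To the right they were -1.61 for STEAP1, -1.31 for STEAP2, -2.16 for GTPBP10, -2.15 for AKAP9, -1.48 for CYP51A1, -2.43 for KRIT1, -1.28 for ANKIB1, -2.05 for GATAD1, -2.76 for RBM48, -2.30 for FAM133B, -4.42 for CDK6 and -1.71 for SAMD9. The members were chosen with both comparisons in view, so these differences are a description. The SEMA3D difference passed only with all libraries, without DU145 resistant replicate 2 or without PC3 sensitive replicate 2, and was -0.78 without DU145 resistant replicate 1. The SEMA3E difference was -2.76 without PC3 resistant replicate 1, and did not pass without DU145 resistant replicate 1 (-1.72) or DU145 sensitive replicate 1 (-1.82). For STEAP4, leaving out PC3 sensitive replicate 1 gave 5.56 and leaving out PC3 resistant replicate 1 gave 4.10. The DMTF1 call was lost without PC3 resistant replicate 2 (-0.70) or PC3 sensitive replicate 2 (-0.77), and the SAMD9 call without DU145 sensitive replicate 2 (-1.33) or PC3 sensitive replicate 2 (-1.25).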

How the results depend on the processing

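Under RLE scaling, every direction and every call of the members was kept in all 4 comparisons. With DESeq2 GRM3 in DU145 lost its call and SEMA3A gained one for the difference between the lines. A filter of 1 CPM in 4 libraries left 31 members, with medians of 1.87 in DU145 and 0.73 in sensitive PC3 over DU145, and 3 lower members in PC3. Under this filter SEMA3A gained a call for the difference between the lines. With no filter, SEMA3A and FZD1 gained such a call, so 4 members differed upward in PC3, and the median of the sensitive lines was 0.55. That median was also 0.55 without ABCB1, 0.27 for members at 8 CPM or more, and 0.57 over all coding genes of the interval. An adjusted p under 0.01 left 0 lower members in DU145 and 3 in PC3, since fewer genes pass. The other causes were not tested. With CALCR set at 3 counts over the PC3 sensitive libraries, the medians of 0.45, 0.67 and -1.60 stayed as they were. With PC3 or DU145 fitted alone, 15 members were higher and 7 lower in PC3, and 29 higher and 1 lower in DU145. A replicate block made 17 members higher and 8 lower in PC3, where CROT (0.41), DBF4 (0.48), STEAP2 (0.42), KRIT1 (-0.38), ANKIB1 (-0.35) and FAM133B (-0.42) gained a call. It also added CALCR in DU145 (2.23), SEMA3A (1.27) and CLDN12 (-0.52) for the difference between the lines, and SRI between the sensitive lines (-0.32), and it changed no other call. No label ties libraries by number, and like-numbered libraries deviated from their group means with a correlation over genes of 0.323 (DU145) and 0.0861 (PC3).

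When single libraries were omitted (a group left with 1 library borrows the spread of the rest), 28 to 30 members were higher and 0 to 1 lower in DU145. For PC3 these counts were 14 to 15 and 2 to 6. The difference between the lines was above 0 for 2 to 3 and below 0 for 22 to 24, and sensitive PC3 had 13 to 16 higher and 4 to 7 lower. Medians were 1.88 to 2.15 for DU145, 0.46 to 0.66 for PC3, -1.76 to -1.37 for the difference and 0.42 to 0.71 between the sensitive lines. Values that changed sign, none of which passed with all libraries, ranged in DU145 from -0.58 to 0.90 for SEMA3D and -0.69 to 0.80 for SAMD9L. In PC3 the ranges were -0.03 to 0.10 for SLC25A40, -0.17 to 0.62 for STEAP1, -0.41 to 0.53 for CYP51A1, -0.17 to 0.05 for CDK6, -0.03 to 0.78 for SAMD9 and -0.78 to 0.20 for SAMD9L. SAMD9L ranged from -1.09 to 0.40 for the difference between the lines. Between the sensitive lines the ranges were -0.06 to 0.36 for DBF4, -0.02 to 0.53 for STEAP2, -0.04 to 0.20 for CYP51A1, -0.04 to 0.07 for KIAA1324L and -0.08 to 0.09 for CDK14. Low counts limit ABCB4, GRM3 and CALCR, SEMA3A and SAMD9L in DU145, and RUNDC3B and STEAP4 in PC3.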
